A study of Mus musculus with 78 samples.

Results

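Vnn1 and Vnn3 were followed here, 2 vanin genes of the 54446 genes listed in the deposited mouse RNA-seq tables. Vnn1 was selected on its higher RNA after 96 h of TRIM28 degradation in mouse embryonic stem cells (mESCs), and Vnn3 was taken with it as the neighbouring member of the family. Differences between 96 h and the DMSO control are therefore given as a description, with no test. Vanins are pantetheinases, extracellular or membrane-anchored enzymes that split pantetheine into pantothenic acid (vitamin B5, the precursor of coenzyme A) and the aminothiol cysteamine. Vnn1 is best known from liver, gut and kidney, where it is a target of the nuclear receptor PPAR alpha, and Vnn3 from myeloid cells.

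The cells were V6.5 mESCs in which the degron FKBP(F36V) was fused to TRIM28, a corepressor that brings H3K9me3, a repressive histone mark, to endogenous retroviruses (ERVs). The tagged line was grown from 1 picked colony. All its samples carried the degron, which the small molecule dTAG-13 directs to the proteasome. Its cells were taken off feeder fibroblasts and given DMSO, or dTAG-13 at 500 nM during 2, 6, 24 or 96 h, with 3 RNA-seq libraries per group. The only DMSO group of this time course is labelled 0 h. No DMSO group is labelled for its later times, so time in culture cannot be told apart from dTAG-13 there. A derivative line, shREPEATS, carried short hairpin RNAs inducible by doxycycline (Dox) against the ERV families IAP, MMERVK10C, MMERVK9C and MMETn. It was given DMSO, dTAG-13, or dTAG-13 with Dox, all labelled 24 h, in 3 libraries each. The treatment text names a 24 h Dox pre-treatment, so by that text Dox began before dTAG-13. Untreated parental V6.5 mESCs, grown on a feeder layer, and V6.5 neural progenitor cells (NPCs) in DMSO were sequenced in 3 libraries each. Newly made RNA was read by TT-SLAM-seq, in which a short 4-thiouridine (4sU) pulse marks nascent transcripts. Its groups were DMSO, again labelled 0 h only, and dTAG-13 at 2, 6 and 24 h, with 3 libraries each. ChIP-seq peaks came from DMSO and 24 h dTAG-13 samples, 3 against 3 for H3K9me3 and for H3K27Ac, a mark of active promoters and enhancers, and 2 against 2 for RNA polymerase II (RNAPII) and the Mediator subunit MED23. The study describes replicates of these RNA assays as biological, and p-values measure the spread between these libraries.

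Both genes lie on the plus strand of chromosome 10 in mm10. Vnn3 (ENSMUSG00000020010.7) spans 23851462 to 23869843 and Vnn1 (ENSMUSG00000037440.8) spans 23894688 to 23905343, each with 7 exons, and 24.8 kb separate the Vnn3 end from the Vnn1 start. 2 ERVs listed as full length occupy this stretch, both on the minus strand. An MMETn element at 23856699 to 23862395 lies inside intron 3 of Vnn3, and its nearer end is 32.3 kb upstream of the Vnn1 start. An IAPEz element at 23871326 to 23878460 starts 1.5 kb past the Vnn3 end and stops 16.2 kb short of the Vnn1 start. Both belong to families that the shREPEATS hairpins were aimed at.

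The RefSeq promoter table matched 1 of the 2 members, Vnn3, and its promoter is shown as the start from which almost no RNA was read. It is the stretch from 250 bases before to 50 bases after the gene start, from RefSeq for GRCm38.p6, chr10:23851212-23851511 on the plus strand. Capitals mark the letters CCAAT or their complement:
Vnn3: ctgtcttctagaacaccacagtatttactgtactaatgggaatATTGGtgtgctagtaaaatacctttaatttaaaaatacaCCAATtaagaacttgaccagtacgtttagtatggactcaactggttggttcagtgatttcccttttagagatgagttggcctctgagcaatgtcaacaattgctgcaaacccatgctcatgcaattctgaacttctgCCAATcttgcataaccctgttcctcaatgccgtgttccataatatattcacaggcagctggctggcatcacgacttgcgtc
A small set of motifs was searched on both strands. The CCAAT box (CCAAT) matched 3 times (2 on the plus and 1 on the minus strand), and 37.4% of the 32851 promoters of the RefSeq table hold at least 1 match. The other motifs had no match in this window. The TATA box (TATAAA) occurs in 13.6% of all promoters, the nuclear receptor core site (AGGTCA) in 16.3% and the GATA site (AGATAA) in 11.2%. A match is only a description of the letters.

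Vnn1 RNA rose slowly and then steeply after dTAG-13. In DMSO the 3 libraries read 0.400, 0.508 and 0.550 TPM (a transcript level scaled for transcript length and library size). At 2 h they read 0.721, 0.840 and 0.468 TPM, and at 6 h 0.968, 0.894 and 0.669 TPM. The 2 h libraries overlapped with DMSO, whereas all 6 h libraries lay above it. At 24 h Vnn1 stood at 8.14, 6.88 and 6.42 TPM, with a mean of 7.15 ± 0.89 (SD, n = 3) against 0.486 ± 0.078 (SD, n = 3), 14.7 times the DMSO mean. At 96 h, the time used to select the gene, the libraries read 147, 143 and 128 TPM, 287 times the DMSO mean and 19.5 times the 24 h mean. Vnn1 then ranked 1259th by level among the 31391 genes above 0.

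**Figure D1:**
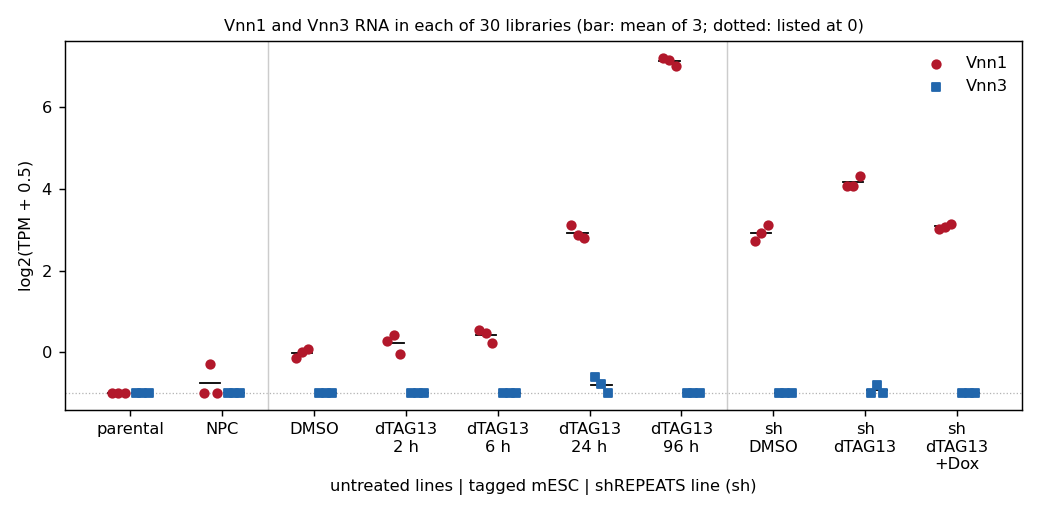
Level of Vnn1 (red circles) and Vnn3 (blue squares) as log2(TPM + 0.5) in each of the 30 RNA-seq libraries, in order of cell line and treatment. Black bars are means of 3 and the dotted line is a gene listed at 0. Vnn1 climbs from a mean of 0.486 TPM in DMSO to 140 TPM at 96 h and is lower with Dox (7.99 TPM) than with dTAG-13 alone (17.4 TPM) in the shREPEATS line, while Vnn3 stays on or near the dotted line.

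Changes were tested by limma on log2(TPM + 0.5), which understates changes of low genes, over 17922 genes that reached 1 TPM in 3 or more time-course libraries. A gene was called at an adjusted p under 0.05 and a change of over 2-fold. Vnn1 passed that filter through its 24 h and 96 h libraries alone. At 2 h its change was 0.24 ± 0.13 (log2, SE; limma adjusted p = 0.246), and 0.251% of all genes were called higher. At 6 h it was 0.44 ± 0.13 (limma adjusted p = 0.0192), under the 2-fold limit, so Vnn1 was not among the 0.776% of genes called higher. At 24 h the change was 2.95 ± 0.13 (limma adjusted p = 3.86e-10). Vnn1 was called along with 10.1% of all genes, and its change ranked 22nd of 17922. Because Vnn1 passed the filter only where it was high, this call and rank describe the levels above and add no separate support. At 96 h, 20.3% of genes were called higher. All these comparisons share the same 3 DMSO libraries. The first 24 h library was shallow, with 0.279 times the median depth of the RNA-seq libraries, and without it the 24 h change was 2.86.

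Vnn3 stayed close to 0. It was listed at 0 in every library of the DMSO, 2 h, 6 h and 96 h groups, in parental cells and NPCs, and in shREPEATS cells given DMSO or dTAG-13 with Dox. The exceptions were the 24 h libraries at 0.152, 0.0847 and 0 TPM, and 1 shREPEATS library given dTAG-13 alone at 0.0729 TPM. Vnn3 thus never reached the filter and was not called in any comparison, and no fold is given against a group at 0. A ratio of Vnn1 to Vnn3 would rest on the pseudocount and is not given.

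The shREPEATS line carries hairpins meant to lower ERV RNA, and its response to dTAG-13 was read with and without Dox. ERV RNA was not quantified here, and no group received Dox without dTAG-13 or without the hairpins. An effect of Dox itself therefore cannot be told apart from an effect of the hairpins. With DMSO its libraries read 6.12, 7.14 and 8.20 TPM of Vnn1, with dTAG-13 16.5, 16.4 and 19.5 TPM, and with dTAG-13 and Dox 7.67, 7.90 and 8.40 TPM. The dTAG-13 libraries lay above all others, and the Dox libraries overlapped with DMSO. Vnn1 rose by 1.23 ± 0.10 with dTAG-13 (log2, SE; limma over 16166 genes, adjusted p = 1.51e-06), when 2.38% of genes were called higher. With Dox added to dTAG-13 it fell by 1.08 ± 0.10 (log2, SE; limma adjusted p = 5.31e-06), when 1.96% of genes were called lower. Without the third dTAG-13 library this change was -0.9962, just inside the 2-fold limit (limma adjusted p = 2.88e-05). Between dTAG-13 with Dox and DMSO the change was 0.16 ± 0.10 (log2, SE; limma adjusted p = 0.375), with 0.00619% of genes called higher.

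Vnn1 moved further in the tagged line than in the shREPEATS line over 24 h. The log2 change was larger by 1.72 ± 0.17 (SE; limma interaction contrast over 17653 genes, adjusted p = 8.25e-06), and 6.61% of genes were called in that direction. The lines began from different levels, as shREPEATS cells in DMSO held 7.16 ± 1.04 TPM (SD, n = 3), 14.7 times the tagged line in DMSO. Library kits also differed, total RNA after ribosomal RNA removal for shREPEATS and poly(A)-selected mRNA for the tagged line, so line and kit cannot be told apart in the levels.

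Parental mESCs and NPCs held the least Vnn1. It was listed at 0 in all 3 parental libraries, and at 0, 0.315 and 0 TPM in NPCs, below every library of the tagged mESCs in DMSO. Neither comparison could be tested, since Vnn1 did not pass the filter there. In order of mean level, the groups ran from parental and NPC (0.105 TPM) through DMSO, 2 h (0.676 TPM), 6 h (0.844 TPM), 24 h, shREPEATS DMSO, shREPEATS dTAG-13 with Dox and shREPEATS dTAG-13 to 96 h. Neighbours in this order overlapped between parental and NPC, DMSO and 2 h, 2 h and 6 h, 24 h and shREPEATS DMSO, and shREPEATS DMSO and dTAG-13 with Dox, and did not overlap elsewhere.

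Marker sums moved with Vnn1 in some groups. Summed TPM of 8 mESC markers was 4438 to 4835 in DMSO, 2970 to 3267 at 24 h and 380 to 443 at 96 h. No marker was at 0. Dppa5a, Pou5f1 and Tdgf1 made up most of this sum, with means of 1843, 1162 and 1048 TPM in DMSO. At 24 h 3 of the 8 were called lower, against 2.01% of all genes, and the median log2 change was -0.65 against 0.13. Nanog went the other way, from 136 to 199 TPM. For shREPEATS cells the mESC sum was 2319 to 2679 in DMSO, 1152 to 1187 with dTAG-13 and 2556 to 2606 with Dox. It was thus lowest where Vnn1 was highest in that line, and the Dox libraries lay within the DMSO range. Of 10 feeder fibroblast markers (collagens and other matrix genes), the sum was 24.2 to 24.8 in DMSO with only Lum at 0, 32.4 to 35.0 at 24 h, and 287 to 311 at 96 h. Parental cells had a feeder sum of 113 to 115 with Vnn1 at 0 throughout. In the shREPEATS line the feeder sum was 109 to 117 in DMSO, 107 to 121 with dTAG-13 and 119 to 125 with Dox. Col1a1 alone had means of 72.4, 70.6 and 77.0 TPM in these groups, so the sum mostly reflects this gene. The median log2 change of the 8 feeder markers tested there was 0.45 with dTAG-13, against 0.14 for all genes. With Dox added to dTAG-13 it was -0.35, against -0.04 for all genes. The sum of 17 endoderm markers was 198 to 219 in DMSO, 229 to 240 at 24 h and 796 to 816 at 96 h with Afp, Apoa1, Hnf4a and Ttr at 0, and in shREPEATS cells it was 377 to 418, 465 to 514 with dTAG-13 and 415 to 416 with Dox. The matrix genes Lamb1, Col4a1 and Col4a2 made up 83.7% of this sum in DMSO and 89.2% at 96 h. At 24 h in the tagged line none of the 12 endoderm markers tested was called (median change 0.01 on the log2 scale, against 0.13 for all genes). Of 9 feeder markers 2 were called higher, against 10.1% of all genes. Of 9 endoderm markers tested in the shREPEATS line, Sox17 was called higher with dTAG-13 (0.58 to 3.91 TPM) and Lama1 lower (5.94 to 2.53 TPM). Both were called in the opposite direction with Dox added. Of 16166 genes, 385 were called higher and 232 lower with dTAG-13, and 241 and 317 with Dox added. At 96 h, given as a description, 7 of the 12 endoderm markers were called higher and 2 lower, and 7 of the 9 feeder markers higher and none lower. Of all genes, 20.3% were called higher and 12.4% lower. The median log2 change was 1.37 for endoderm and 2.45 for feeder markers, against 0.05 for all genes. In bulk RNA, more cells of a type and more RNA per cell cannot be told apart, and the part of other cell types in the rise of Vnn1 was not tested.

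Nascent transcription of Vnn1 was low and rose at 24 h. The TT-SLAM-seq values in DMSO, in FPKM (fragments per kilobase of gene, scaled to library size), were 0.0257, 0.00745 and 0. The 2 h libraries read 0.0173, 0.00661 and 0 FPKM, the 6 h libraries 0.0174, 0.0308 and 0.0170 FPKM, and the 24 h libraries 0.0928, 0.0960 and 0.0724 FPKM. All 24 h libraries lay above every other library. Every value was under the 0.5 FPKM filter, so the planned limma test gave no result for Vnn1 among the 13357 genes tested. With the filter left out, the 24 h change had a limma adjusted p of 0.00035, the 6 h change 0.564 and the 2 h change 0.965. The values were whole multiples of 1 read, and correspond to 2, 1 and 0 Vnn1 reads with DMSO, 3, 1 and 0 after 2 h, 3, 6 and 3 after 6 h, and 24, 21 and 5 after 24 h. Libraries were scaled to between 6481999 reads (the third 24 h library) and 24266191 reads.

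Summed over libraries, Vnn1 had 50 reads at 24 h and 3 in DMSO, a ratio of read rates of 10.2 with a 95% exact interval of 3.29 to 51.0 that covers counting error only. At 6 h the ratio was 2.45 (0.662 to 13.5), and at 2 h 0.936 (0.158 to 6.39), both with intervals that include no change. In a limma voom fit to the recovered reads of 26548 genes, chosen after the data were seen, the 24 h change was 2.77 ± 0.70 (log2, SE; adjusted p = 0.00388), when 5.13% of genes were called higher. The same fit gave 1.03 ± 0.79 at 6 h (adjusted p = 0.472; 0.693% of genes called higher) and -0.12 ± 0.89 at 2 h (adjusted p = 0.961; 0.475% called higher). Vnn3 had no reads before 24 h, and 0, 3 and 1 reads then, too few to be tested.

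**Figure D2:**
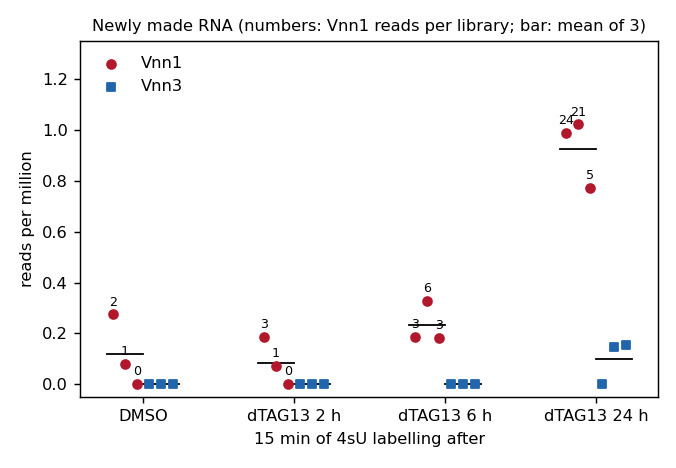
Read rate, scaled to library size, assigned to Vnn1 (red circles) and Vnn3 (blue squares) in each of the 12 TT-SLAM-seq libraries, by length of dTAG-13 treatment. Numbers are Vnn1 reads per library and black bars are means of 3. The 24 h libraries, with 24, 21 and 5 Vnn1 reads, stand above all others.

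H3K9me3 lay over both ERVs of the locus and not on the genes' starts. Windows ran from 50 kb before the Vnn3 start to 50 kb past the Vnn1 end, and the 10000 peaks of highest fold enrichment (signal over local background) were used from each library, since the number of deposited peaks ranged from 104579 to 126470 in DMSO but from 11474 to 147611 after dTAG-13. The DMSO libraries covered 10097, 21216 and 10629 bases of the window, and the 24 h dTAG-13 libraries covered 991, 839 and 2104 bases. The groups did not overlap (13981 ± 6272 against 1311 ± 691 bases, SD, n = 3, two-sided exact permutation p = 0.1, the smallest possible). The loss was widespread: of 25224 gene windows with any such peak, 38.0% were lower in every dTAG-13 library. With all deposited peaks, coverage was 18806, 23056 and 19794 bases in DMSO against 991, 7669 and 8140 bases, and 55.9% of gene windows were lower in every dTAG-13 library. The first dTAG-13 library, with 11474 peaks, stood apart in peak number. Without it the difference in covered bases was -12509, against -12669 with it.

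The same loss appeared over each element, read from all deposited peaks as a description. Peaks covered 97.2%, 100% and 100% of the IAPEz element in the DMSO libraries and 11.8%, 63.2% and 51.6% of it in the dTAG-13 libraries. The strongest IAPEz peak had a fold enrichment of 6.81, 5.03 and 5.08 with DMSO, against 4.56, 3.30 and 3.30 with dTAG-13. Over the MMETn element the coverage was 68.8%, 100% and 80.2% with DMSO, against 0%, 23.1% and 29.9% with dTAG-13. The strongest MMETn peak had a fold enrichment of 5.80, 3.90 and 4.38 in DMSO. After dTAG-13, 1 library had none and the others reached 2.67 and 2.66. No library overlapped with the other group in these values, and 77.8% of the 423 full-length MMETn elements with a peak were likewise lower in every dTAG-13 library. Outside the elements, a site about 21 kb past the Vnn1 start had H3K9me3 peaks of 3.95, 3.87 and 3.24 with DMSO. With dTAG-13 the first library had no peak there and the others reached 3.08 and 2.88. How reads that map to several ERV copies were placed is not given in the sources used here.

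**Figure D3:**
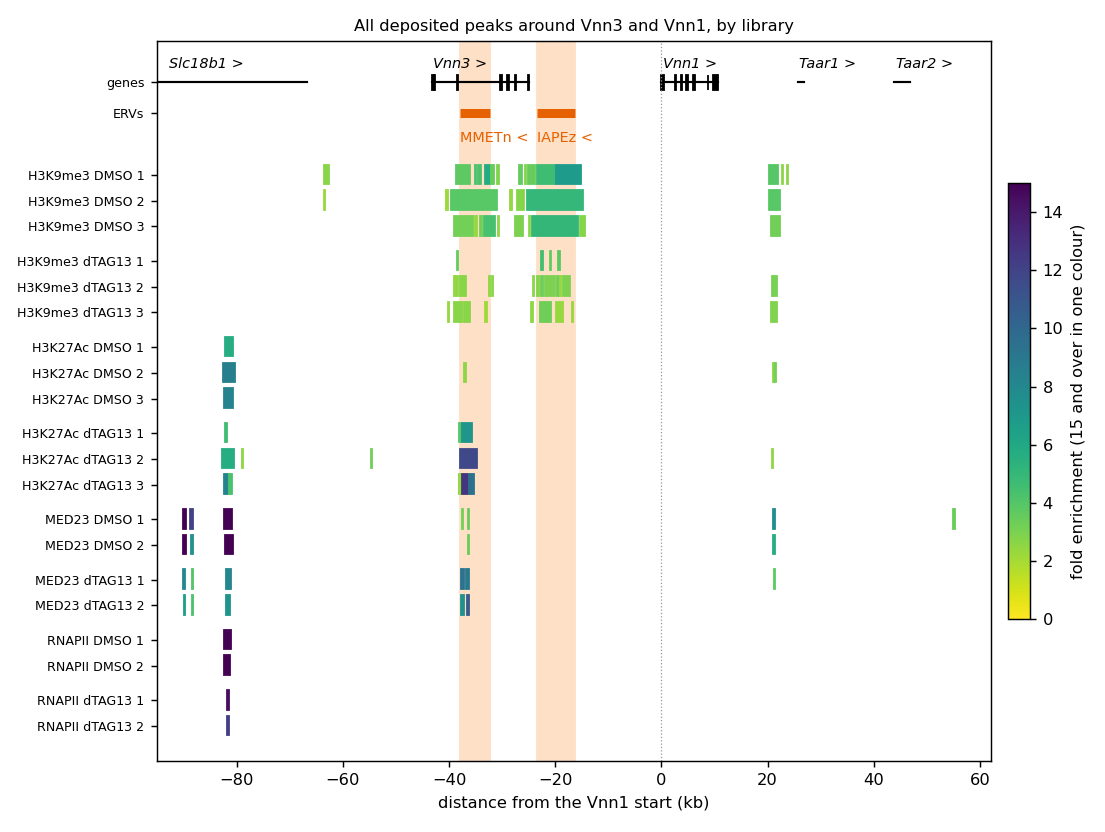
Deposited peaks of 20 ChIP-seq libraries (rows) around the vanin genes, by distance from the Vnn1 start in kb. Colour is fold enrichment, black bars at the top are exons, orange bars and shading are the MMETn and IAPEz elements, and arrows give strand. H3K9me3 blocks over both elements shrink after dTAG-13, H3K27Ac and MED23 peaks appear or strengthen over MMETn, and no peak lies on the Vnn1 start.

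H3K27Ac was gained over the MMETn element. In the windows of 50 kb around Vnn1, the 10000 strongest peaks of each library covered 0 bases in all 3 DMSO libraries and 1807, 3304 and 2072 bases after dTAG-13 (two-sided exact permutation p = 0.1, the smallest possible), and 2.57% of 30403 gene windows were higher in every dTAG-13 library. With all deposited peaks, coverage was 0, 583 and 0 bases with DMSO, against 1951, 3549 and 2362 bases with dTAG-13, and 1.30% of gene windows were higher throughout. Peaks on the MMETn element carried this gain. Their strongest fold enrichment was 7.19, 11.8 and 12.7 after dTAG-13, while in DMSO 2 libraries had no peak there and 1 had a peak of 2.56. In the second dTAG-13 library the peak spanned chr10:23856707-23860010. Of 372 full-length MMETn elements with an H3K27Ac peak, 41.9% rose in every dTAG-13 library. The IAPEz element had no H3K27Ac peak in any library.

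The wider window that takes in Vnn3 also holds a peak inside Slc18b1, upstream of Vnn3, which was present in every H3K27Ac library. With it, coverage was 0, 2266 and 1674 bases with DMSO, against 1807, 3304 and 3432 bases with dTAG-13, and the groups overlapped (two-sided exact permutation p = 0.2). No H3K27Ac peak lay within 20 kb of Vnn1 among the 10000 strongest of any library.

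MED23 changed at the same element. Its strongest MMETn peak had a fold enrichment of 3.47 and 3.45 with DMSO, against 9.38 and 10.8 with dTAG-13, and 35.8% of 307 full-length MMETn elements with a MED23 peak were higher in both dTAG-13 libraries. At the Slc18b1 site the order was opposite, with 17.2 and 21.6 for DMSO against 8.09 and 7.22 for dTAG-13. Between the Vnn1 end and Taar1, about 21 kb past the Vnn1 start, MED23 was also lower after dTAG-13. There the peak had 7.61 and 5.77 with DMSO, against 3.70 and no peak with dTAG-13. Deposited MED23 peaks numbered 58925 to 63045 with DMSO and 14551 to 15335 with dTAG-13, and the part of this in any of these differences was not tested. Among the 10000 strongest peaks, whose lowest fold enrichment was 10.3 and 9.95 with DMSO but 4.37 and 4.44 with dTAG-13, MED23 covered 0 bases of the Vnn1 window in both DMSO libraries and 1126 and 896 bases after dTAG-13 (two-sided exact permutation p = 0.3333, the smallest that 2 against 2 allows). With all deposited peaks it covered 754 and 606 bases with DMSO, against 1261 and 896 bases with dTAG-13. RNAPII had no peak over either element, nor on either vanin gene. Its only peak of the window was at Slc18b1, with 29.5 and 33.4 for DMSO against 14.4 and 12.2 for dTAG-13. Deposited RNAPII peaks numbered 19194 to 19853 with DMSO and 7689 to 8182 with dTAG-13, and by fold this peak ranked 408th and 295th with DMSO and 405th and 500th with dTAG-13. None of the 20 libraries had a peak within 1 kb of the Vnn1 or Vnn3 start, or anywhere in the Vnn1 gene.

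**Figure D4:**
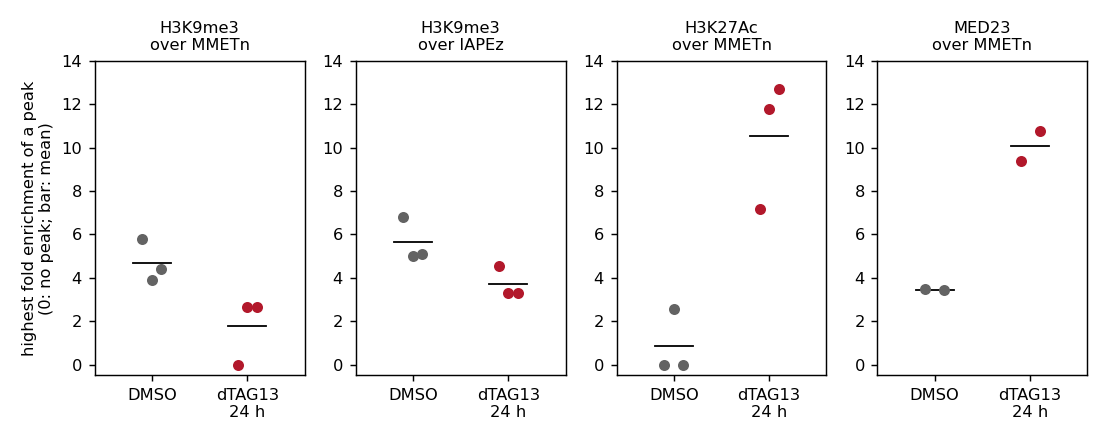
Highest fold enrichment of a deposited peak over the MMETn or IAPEz element in each library, DMSO (grey) against 24 h dTAG-13 (red), where 0 is no peak and black bars are means of 3 libraries (2 for MED23). H3K9me3 is lower over both elements, and H3K27Ac and MED23 are higher over MMETn, without overlap between groups.

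The neighbourhood did not move as one. Of 28 genes that start within 250 kb of the pair, 5 including Vnn1 reached 1 TPM in at least 3 libraries. The other 23 included Vnn3 and all 16 trace amine receptor (Taar) genes and pseudogenes. Stx7, a syntaxin of endosomal membrane fusion 255 kb past the Vnn1 start, rose from 16.6 ± 1.5 to 39.9 ± 4.8 TPM (SD, n = 3) at 24 h, a change of 1.24 ± 0.09 (log2, SE; limma adjusted p = 4.55e-08). In shREPEATS cells Stx7 changed by 0.73 ± 0.07 with dTAG-13 (limma adjusted p = 4.66e-06) and by -0.61 ± 0.07 with Dox added (limma adjusted p = 2.63e-05), both under 2-fold. The pseudogene Gm15136, 126.5 kb past the Vnn1 start, was listed at 0 in DMSO and at 1.78 ± 0.22 TPM (SD, n = 3) at 24 h. It passed the filter through its 24 h libraries alone, so its call (limma adjusted p = 4.62e-08) adds nothing to these levels. Upstream, Slc18b1, a vesicular polyamine transporter, went from 6.65 ± 0.71 to 4.99 ± 0.60 TPM, and Rps12, a ribosomal protein gene, from 3464 ± 199 to 2994 ± 16.6 TPM (SD, n = 3 each), and neither was called.

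**Figure D5:**
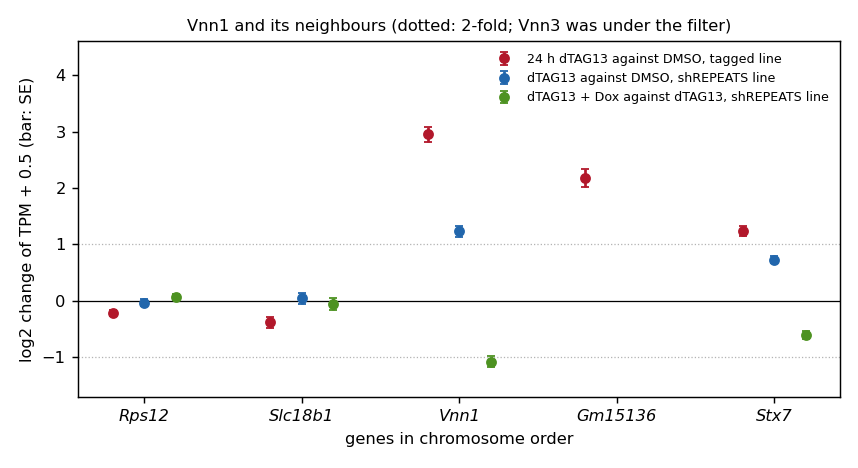
Fitted log2 change of TPM + 0.5 with its SE for Vnn1 and the 4 neighbours that reached 1 TPM in 3 or more libraries, in chromosome order, for 3 comparisons (colours). Dotted lines mark 2-fold. Vnn1 shows the largest rise at 24 h (2.95) among these genes, Slc18b1 and Rps12 stay within 2-fold in all 3 comparisons, and Gm15136 did not pass the filter in the shREPEATS line.

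Few genes around pantetheine were called at 24 h. Of 21 genes of coenzyme A and cysteamine metabolism, 20 were tested and 2 were called higher at 24 h, a share like the 10.1% of all genes, and none lower (2.01% of all genes). Their median change was 0.31 against 0.13 for all genes (log2). At 96 h, given as a description, 3 of the 20 were called higher and 2 lower, when 20.3% of all genes were called higher and 12.4% lower. The 2 called at 24 h were Slc25a42 and Nudt7. Slc25a42, the mitochondrial coenzyme A carrier, rose at 24 h from 3.52 to 9.23 TPM, by 1.27 ± 0.09 (log2, SE; limma adjusted p = 2.44e-08). Nudt7, a peroxisomal coenzyme A diphosphatase, rose at 24 h from 2.17 to 6.03 TPM, by 1.29 ± 0.21 (log2, SE; limma adjusted p = 7.72e-05). In the shREPEATS line none of the 20 was called under any of the 3 comparisons, and the median change with dTAG-13 was 0.15 against 0.14 for all genes.

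Of 16 PPAR alpha target genes, 9 were tested, and at 24 h 3 were called higher and 1 lower, against 10.1% and 2.01% of all genes, with a median change of 0.44 against 0.13 for all genes. At 96 h, given as a description, 4 of the 9 were called higher and 1 lower, when 20.3% of all genes were called higher and 12.4% lower. The 3 called higher at 24 h were Pdk4, Acot1 and Cpt1a. Pdk4, which holds back pyruvate oxidation, went from 1.95 to 9.29 TPM, and Acot1, an acyl-CoA thioesterase, from 38.5 to 103 TPM. Cpt1a, which admits fatty acids to mitochondria, went from 8.31 to 18.1 TPM. Angptl4, a secreted inhibitor of lipoprotein lipase, fell from 6.45 to 2.72 TPM at 24 h. In the shREPEATS line with dTAG-13 1 of the 9 was called, against 2.38% of all genes called higher: Acot1, which rose by 1.03 ± 0.07 (log2, SE; limma adjusted p = 3.68e-07). With Dox added to dTAG-13 none of the 9 was called, and 1 was with a pseudocount of 0.1 or with libraries centred on their median.

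Across the 30 RNA-seq libraries, genes whose level closely resembled that of Vnn1 were Arhgap28 (Pearson r = 0.987), Asah2 (0.986), Parm1 (0.983) and Pdgfd (0.980), of 19714 genes compared on log2(TPM + 0.5). These share with Vnn1 a peak at 96 h, and their means there were 33.1, 5.95, 18.1 and 5.53 TPM. None lies on chromosome 10. Vnn1 was selected on its 96 h level and the 96 h libraries enter this correlation, so the shared peak adds no separate support. Likeness to Vnn3 rested on the 3 libraries with a value above 0, the closest genes being Gm18227 (r = 0.742), Xrn1 (0.742), Gm14002 (0.733), Tspo2 (0.722) and BC048671 (0.714).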

How the data were processed

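RNA-seq, TT-SLAM-seq and ChIP-seq files of mouse cells were used. The submitters' processing notes name mm10 and, for RNA-seq, cutadapt 2.4, STAR 2.7.5a and StringTie 2.0.6, with which the authors made the deposited TPM, FPKM and coverage per gene. For TT-SLAM-seq the authors deposited FPKM of reads with T-to-C conversions (SLAM-DUNK 0.4.1, htseq-count 0.11.4), which scale with the whole gene span, introns included. The deposited peaks carry a fold enrichment, a ratio of ChIP signal to background, with 1 peak file per library. The notes name BWA and MACS2 for ChIP-seq, and no spike-in scaling was applied here.

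Rows of 1 gene ID (4 to 9 IDs repeated per table) were summed. Vnn1 and Vnn3, the gene lists and the named genes (members, genes within 250 kb, list genes called at 24 h or in the shREPEATS line, the 5 most alike) were chosen with earlier results of these data known. A gene that this rule also named is not reported here. limma 3.58.1 (trend, Benjamini-Hochberg) in R 4.3.3 was run on log2(TPM + 0.5). The voom fit and the peaks over elements were added after the data were seen. Peaks were compared by exact permutation of libraries, using 10000 peaks per library (7689 for RNAPII). The TT-SLAM-seq FPKM, multiplied by gene span, gave whole reads (within 0.1) for 100% of values up to 20 reads. Relative RNA-seq depth, from coverage per TPM, ran from 0.279 to 1.51 of the median. For shREPEATS, sample characteristics name Dox for 1 group, whereas the treatment text names a 24 h Dox pre-treatment for the line as a whole. Groups follow the characteristics. Alternatives are in the closing section. The limma script was tested on simulated data.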

Additional observations from a re-analysis of the deposited data

Results flagged for a closer look

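The 24 h response to dTAG-13 differed between the tagged line and the shREPEATS line for 5 of 11 genes named in the report. Each was called by limma's interaction contrast with a difference of over 2-fold, as were 6.61% of all genes in this direction. Some of the 11 were named because they were called at 24 h in the tagged line, whose libraries enter this contrast. The 5 of 11 therefore cannot be read against the 6.61%. The log2 change was larger in the tagged line by 1.72 for Vnn1 (limma adjusted p = 8.25e-06) and by 1.14 for Slc25a42 (adjusted p = 1.4e-05). It was larger by 1.13 for Pdk4 (adjusted p = 0.000539) and by 1.12 for Cpt1a (adjusted p = 2.06e-05). For the pseudogene Gm15136 the difference was 1.65. That gene passed the filter through the 24 h tagged libraries alone, so its call adds nothing to its levels. Pdk4 was at 2.15 TPM in shREPEATS DMSO and 4.32 TPM with dTAG-13. Cpt1a was at 6.03 and 5.82 TPM in the same groups. Line and library kit cannot be told apart in these differences. Groups of 3 were not tested for a sample far from the others.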

How the results depend on the processing

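Vnn1 kept its direction and call at 2 h, 6 h and 24 h and in the shREPEATS line with other pseudocounts, filters, centring, FPKM and a replicate block, and, at 24 h and in the shREPEATS line, with only the groups compared. The difference between lines was rerun with other pseudocounts (1.27 to 2.35) and a replicate block. Leaving out 1 library gave 2.86 to 3.02 at 24 h, 1.13 to 1.33 with dTAG-13 in shREPEATS cells, and -1.12 to -0.9962 with Dox added, where 1 left-out library (the third dTAG-13 library) took the change under 2-fold. For dTAG-13 with Dox against DMSO, 0.16 became 0.06 to 0.25. At 6 h the limma adjusted p reached 0.0758 without 1 library and 0.0521 with centring. FPKM in place of TPM gave 2.25 at 24 h. In no comparison did every pair of same-numbered libraries deviate together (correlation over 0.1). With a replicate block the 24 h change was 2.95 (limma adjusted p = 2.68e-09) and no call of Vnn1 changed. With no filter on low values Vnn3 had a limma adjusted p of 0.0306 at 24 h and 0.429 with dTAG-13 in shREPEATS cells, with changes under 2-fold.

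For TT-SLAM-seq, log2(FPKM + 0.5) gave Vnn1 a change of 0.20 at 24 h and 0.03 at 6 h. With a pseudocount of 0.1 these were 0.76 and 0.14, and with 1 the 24 h value was 0.10. Recovered reads gave -0.12, 1.03 and 2.77 at 2, 6 and 24 h, the last 2.09 to 3.39 without 1 library, and that fit called 1363 of 26548 genes higher and 1529 lower at 24 h. The FPKM fit, with another filter and model, called 333 of 13357 higher and 121 lower.

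Covered bases over both genes, dTAG-13 minus DMSO, depended on the peaks kept. H3K27Ac went from 1534 to 2658 with fewer peaks per library (0.5 of the number), and to 878 without the first DMSO library (range 878 to 2055). RNAPII went from -852 to 0 with 20 kb windows and -1677 with 100 kb windows. MED23, at -121, reversed to 144 with that smaller number, to 1011 with 20 kb windows, and to 108 or 16.0 without 1 library (range -350 to 108), and was -784 with all peaks and -2050 with 100 kb windows. For Vnn1 alone MED23 went from 1011 to 398 with all peaks and 0 with 20 kb windows, and reversed to -380 with 100 kb windows. Among listed genes called, coenzyme A genes at 6 h went from 0 to 1 with a pseudocount of 0.1, PPAR alpha targets at 24 h from 4 to 3 with centring and 5 with a pseudocount of 0.1, and with Dox against dTAG-13 from 0 to 1 in both. Low read numbers limit the TT-SLAM-seq values, and no 3 against 3 or 2 against 2 permutation can pass 0.05.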
